A study of Bos taurus with 27 samples.

Results

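Succinate dehydrogenase is the mitochondrial enzyme that oxidizes succinate to fumarate, and its 4 subunits are encoded by SDHA, SDHB, SDHC and SDHD. The probes described here are all non-control probes of the array whose gene name is one of these 4 symbols, which gave 4 of the 15008 probes and 4 of the 14952 gene names on the array. The genes were chosen from their changes between fattening stages on these same arrays, together with the number of arrays on which each was well above background. Their levels and changes are therefore given as a description, without a test.

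The rumen epithelium (RE) of 9 Japanese Black cattle was measured at 3 fattening stages, with 27 one-color arrays in all. The same castrated and fistulated cattle, fed concentrate and rice straw, were biopsied at 14 months of age (early stage), 21 months (middle stage) and 29 months (late stage). The number that ends each sample title was taken as the animal, which the titles do not state. Changes within animals were taken for 3 periods. These were the first period (middle versus early stage), the second period (late versus middle stage) and the total period (late versus early stage). Per the paper, the ratio of forage to concentrate also differed between the stages. Slide and array brightness differed between them as well (below). The first and second periods share the 9 middle-stage arrays, so their values are given side by side and are not independent.

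Succinate dehydrogenase belongs both to the tricarboxylic acid cycle and, as complex II, to the respiratory chain, where it passes electrons from succinate to ubiquinone. SDHA carries the flavin and the succinate-binding site, SDHB carries the iron–sulfur clusters, and SDHC and SDHD anchor the enzyme in the inner mitochondrial membrane and form the ubiquinone site. The rumen epithelium takes up volatile fatty acids from fermentation, and propionate oxidized there enters the cycle as succinyl-CoA, just upstream of succinate.

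Each subunit was read by 1 probe of 60 bases, printed once. The SDHA probe starts at base 148 of its transcript and lies on the minus strand of chr20:71955136-71956157 (UMD_3.1), a span of 1022 bases, so that its bases are not contiguous in the genome. The SDHB probe starts at base 455 of its transcript and covers chr2:136148176-136148235 on the plus strand. Both sequences, read 5′ to 3′, are shown because these catalytic subunits carried the largest changes of the second period.
SDHA: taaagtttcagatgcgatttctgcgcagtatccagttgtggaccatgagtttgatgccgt
SDHB: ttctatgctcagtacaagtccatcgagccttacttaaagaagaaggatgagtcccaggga
Of the 3 reading frames of each printed sequence, 2 are free of stop codons in SDHA and 1 in SDHB. The SDHD probe starts at base 1046 of its transcript, at chr15:22733686-22733745 on the plus strand. The SDHC probe was designed on an expressed sequence tag that the array does not place in the genome, so its gene name rests on the array design alone. The GC content of the probes was 45.0% for SDHA and SDHB, 43.3% for SDHC and 41.7% for SDHD, beside a median of 45.0% over all probes. When each of these 4 sequences was divided into stretches of 20 bases, 0 other probes of the array held any of the stretches.

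The arrays differed in brightness between stages. The median processed signal of an array, an intensity after background subtraction, ranged from 35.2 to 48.6 over the 9 early-stage arrays (median 39.3), from 8.22 to 28.7 over those of the middle stage (16.7) and from 32.2 to 47.0 over those of the late stage (39.6). The share of probes that the scanner software called well above background, meaning clearly brighter than the surroundings of the spot, ranged from 68.9% to 78.2% in early-stage, from 48.8% to 71.6% in middle-stage and from 68.5% to 73.8% in late-stage samples. By its median signal, every array of the early and late stages was thus brighter than every array of the middle stage. Stage and slide were also largely confounded over the 5 slides: animals 1 to 8 at the early stage were on slide 1, animal 9 at that stage shared slide 2 with 7 middle-stage arrays, slide 3 held the other 2 middle-stage arrays, and slides 4 and 5 held the late stage. Apart from the comparison within slide 2, stage and slide cannot be told apart. Levels below are log2 of the processed signal minus the log2 median of the same array, so a level of 0 is the array median.

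The tissue label was checked against 19 markers of stratified epithelium, such as the keratin KRT6A, whose probe was the brightest of them. All 19 passed the well-above-background call on every early-stage and late-stage array, and 17 did so on every middle-stage array. The sum of their levels, taken on the linear scale relative to the array median, had a median of 5627, 3171 and 5985 in early-, middle- and late-stage samples. The middle-stage sums (1546 to 5957) overlapped those of the early stage (4724 to 6414) and of the late stage (5563 to 6657), and all but 1 of them lay below both. As each biopsy is a bulk sample, fewer cells of a type and less RNA per cell cannot be told apart, and this holds for the subunits as well.

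SDHA, the catalytic flavoprotein, had early-stage levels of 1.68 to 2.49 (median 2.20; SD 0.27, n = 9). Its middle-stage levels were −1.17 to −0.34 (median −0.77; SD 0.26), and its late-stage levels 2.14 to 2.51 (median 2.24; SD 0.14). All 9 middle-stage levels lay below all early-stage and late-stage levels with a wide gap, while the early and late ranges overlapped. The probe was well above background on 9 early-stage, 7 middle-stage and 9 late-stage arrays. The 2 exceptions were middle-stage animals 4 and 9, whose SDHA signals after background subtraction were 3.66 and 10.9. Over the stages its ratio of signal to local background was 10.5, 1.95 and 12.4 in the median. This ratio is a separate measure and not the signal after background subtraction divided by the local background. The software's error estimate reached 32.1% of the signal at the middle stage, beside at most 10.1% at the others. The middle-stage level of SDHA was thus read near the lower end of what the arrays resolve.

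Within animals, SDHA fell by 2.94 on the log2 scale in the first period (SE 0.11, SD 0.34), a 7.66-fold lower level, and was lower in 9 of 9 animals. Single animals ranged from −3.37 in animal 4 to −2.47 in animal 9, both of them animals whose middle-stage signal was not well above background. In the second period it was higher by 3.02 (SE 0.11, SD 0.27), an 8.13-fold difference, with single animals from 2.51 to 3.41. The size of both steps was similar, and the total period left a difference of 0.09 (SE 0.11, SD 0.25), higher in 7 animals and lower in 2. That difference is smaller than its spread over animals.

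SDHB, which carries the iron–sulfur clusters, had levels of 5.78 to 6.44 at the early stage (median 6.21; SD 0.24). At the middle stage they were 2.92 to 4.96 (median 4.54; SD 0.61), and at the late stage 6.24 to 6.63 (median 6.46; SD 0.12). Every middle-stage level again lay below every level of the other stages, and the early and late ranges overlapped in a narrow band. It was well above background on all 27 arrays, with a median processed signal of 3054, 439 and 3402 over the stages. Its ratio of signal to local background was 180.2, 30.7 and 229 in the median. Its lowest processed signal was 62.1, with a ratio of 4.73, on the middle-stage array of animal 4. Middle-stage animal 4 stood apart at 2.92, far below the next lowest level of 4.23 among the 9.

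SDHB fell by 1.73 in the first period (SE 0.18, SD 0.68) and was lower in 9 of 9 animals, from −3.30 in animal 4 to −0.90 in animal 9, a 3.32-fold lower mean level. The second period brought a difference of 2.02 (SE 0.18, SD 0.64), higher in 9 of 9 animals, from 1.28 to 3.54. Animal 4 therefore supplied the extreme value of both periods through 1 array. Without animal 4 the first-period change was −1.54 and the second-period change 1.82, the smallest sizes that leaving out any 1 animal gave. Over the total period SDHB was 0.28 higher (SE 0.18, SD 0.16), and each of the 9 animals was higher, by 0.11 to 0.63. The difference was small beside the steps of the separate periods, and with quantile normalization it came to 0.10. The SE here shares 1 estimate of spread over the 3 stages, and it was 0.07 when the paired fit held the early and late stages alone. In that fit, and with the methods' t-test, the SDHB difference passed an adjusted *P* of 0.05, which it did not as reported.

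**Figure D1:**
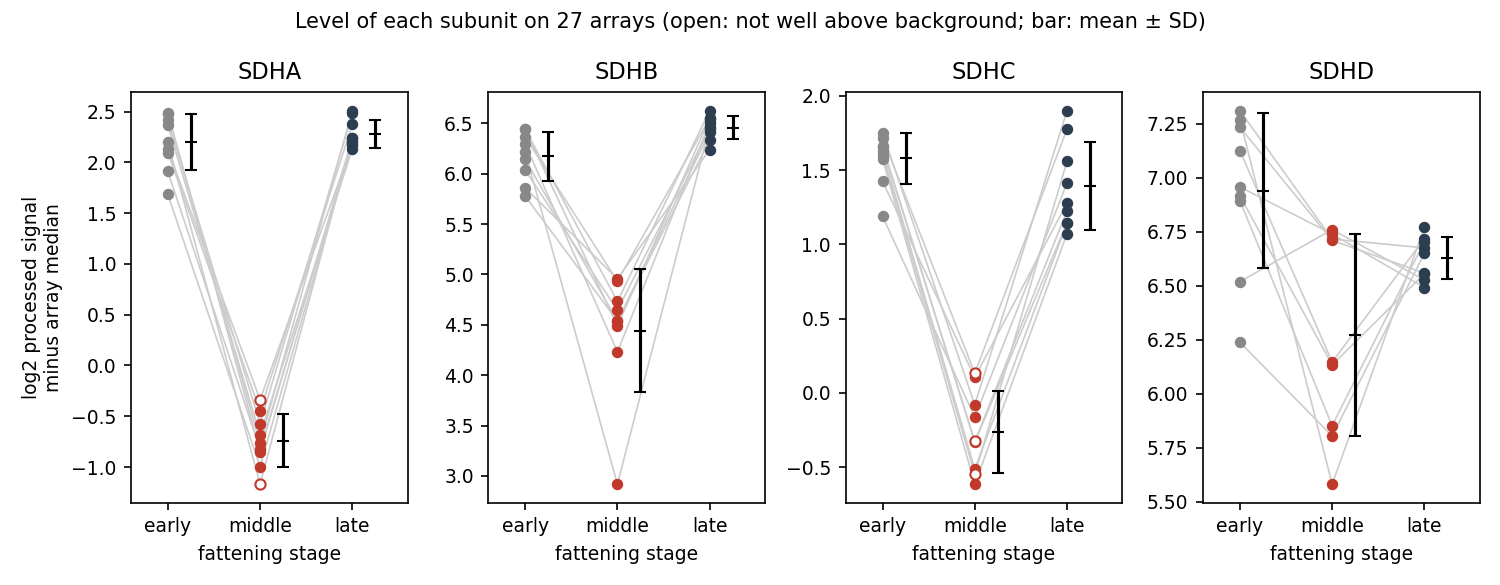
Levels of the 4 subunits on 27 arrays (log2 processed signal minus the array median), with lines joining the 3 stages of an animal, open points for signals not well above background and bars for mean ± SD of 9 arrays. Middle-stage levels of SDHA (−1.17 to −0.34), SDHB (2.92 to 4.96) and SDHC (−0.61 to 0.13) all lie below those of both other stages, and those of SDHD (5.58 to 6.76) overlap them.

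SDHC, a membrane anchor, had levels of 1.19 to 1.75 at the early stage (median 1.63; SD 0.17). They were −0.61 to 0.13 at the middle stage (median −0.33; SD 0.28) and 1.07 to 1.90 at the late stage (median 1.28; SD 0.30). As for SDHA and SDHB, no middle-stage level reached the lowest level of another stage, and the late-stage range enclosed the early-stage range. Its signal was well above background on 9, 6 and 9 arrays of the stages, the exceptions being middle-stage animals 4, 8 and 9. Over the stages the median processed signal was 118, 15.1 and 99.9. The ratio of signal to local background, a separate measure, was 7.15, 2.12 and 6.97 in the median. The error estimate was up to 26.6% at the middle stage. Like SDHA, this subunit was read near the lower end of what the arrays resolve at the middle stage.

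Within animals, SDHC fell by 1.84 in the first period (SE 0.12, SD 0.34), a 3.58-fold lower level, and was lower in 9 of 9 animals. It was higher by 1.65 in the second period (SE 0.12, SD 0.27) in 9 of 9 animals, a 3.14-fold difference. Single animals ranged from −2.19 to −1.32 and from 1.18 to 2.11. The total-period difference was −0.19 (SE 0.12, SD 0.30), lower in 6 animals and higher in 3, which is within its spread over animals.

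SDHD, the other anchor, had levels of 6.24 to 7.31 at the early stage (median 6.96; SD 0.36). At the middle stage its levels were 5.58 to 6.76 (median 6.15; SD 0.47), and at the late stage 6.49 to 6.77 (median 6.65; SD 0.10). All 3 ranges overlapped, in contrast to the other subunits. The middle-stage animals fell into a higher set (animals 1, 3, 7 and 9, near the late-stage levels) and a lower set (animals 2, 4, 5, 6 and 8). SDHD was well above background on all 27 arrays, and none of its spots was dim. Its ratio of signal to local background was 304, 94.8 and 244 in the median over the stages.

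SDHD fell by 0.67 in the first period (SE 0.16, SD 0.55), a 1.59-fold lower level, in 8 of 9 animals, and animal 9 was 0.24 higher. In the second period the difference was 0.36 (SE 0.16, SD 0.54), higher in 5 animals and lower in 4, with a range from −0.25 to 1.19. Animals thus did not share a direction in the second period, and the SD exceeded the mean. The total-period difference was −0.31 (SE 0.16, SD 0.34), lower in 7 animals and higher in 2.

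**Figure D2:**
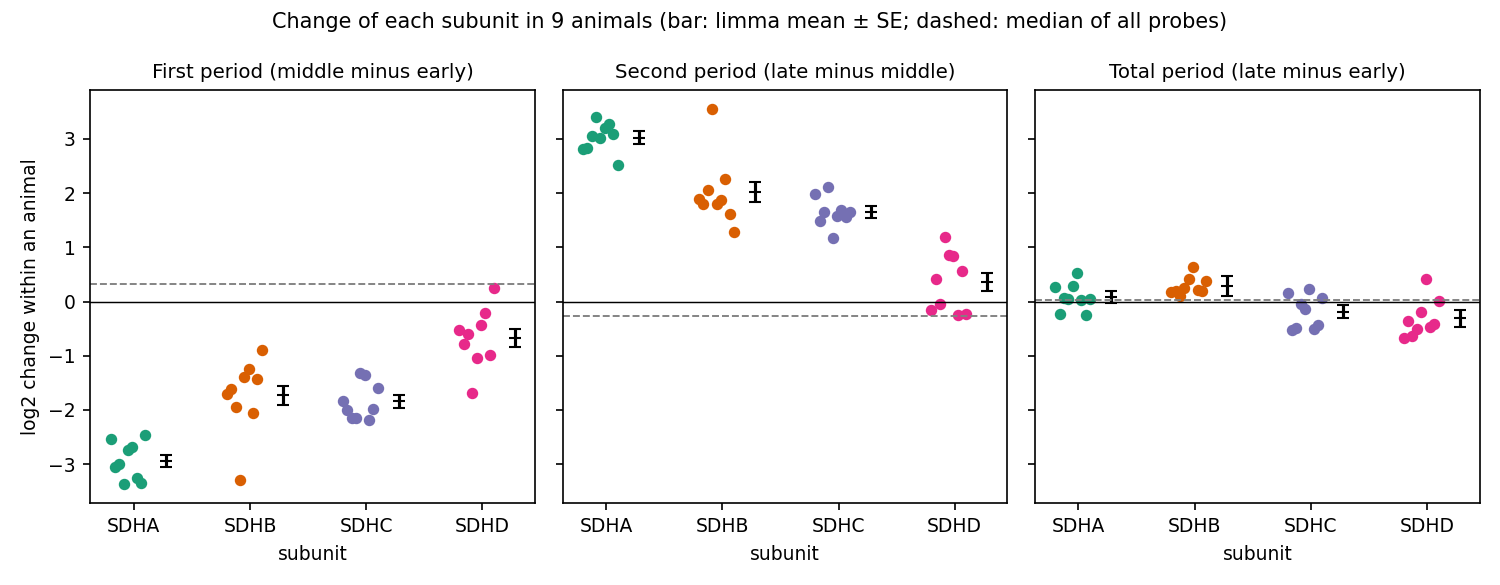
Log2 change of each subunit within each of 9 animals, by period, with limma means ± SE as bars and the median of all probes as a dashed line (0.33, −0.28 and 0.03). SDHA, SDHB and SDHC lie below 0 in all animals in the first period and above 0 in all in the second, while SDHD has 1 animal above 0 in the first period and 4 below 0 in the second.

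In order of their first-period changes the subunits were SDHA (−2.94), SDHC (−1.84), SDHB (−1.73) and SDHD (−0.67). The ranges of SDHA and SDHC over animals were separate, those of SDHC and SDHB overlapped and had means closer than their SDs, and those of SDHB and SDHD overlapped as well. The second period gave the order SDHA (3.02), SDHB (2.02), SDHC (1.65) and SDHD (0.36), with ranges that overlapped between each subunit and the next. The order depended on the background correction, since with normexp the first-period changes were −2.06 for SDHB, −1.29 for SDHA, −1.27 for SDHD and −0.81 for SDHC. None of these differences between subunits was tested. The plot of changes within animals shows both orders as reported, with the SDHB value of animal 4 below those of the other 8 animals in the first period and above them in the second. Animal 6 had the lowest early-stage level of all 4 subunits and animal 9 the highest middle-stage level of all 4, although its SDHA and SDHC signals were not well above background. Animal 4 had the lowest middle-stage level of SDHA, SDHB and SDHD and animal 7 that of SDHC.

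In the first and second periods most probes changed, which is the background of any count of subunits. In limma with an adjusted *P* below 0.05 over all 15008 probes, 45.3% of probes were higher and 21.2% lower in the first period, 26.7% higher and 44.8% lower in the second, and 11.0% higher and 9.01% lower in the total period. By the same rule all 4 subunits counted as lower in the first period, 3 as higher in the second (all but SDHD) and 0 in the total period. Slide as a random block counted 3 as lower in the first period, without SDHD, and slide as a fixed block 1. The subunits were chosen from these contrasts, so the counts describe the choice and nothing is read from them. At an unadjusted *P* below 0.05, limma also counted 0 subunits in the total period, beside 4869 probes. The count of 0 depended on the scaling and on the fit. With 75th percentile scaling and with the deposited value table it was 2, SDHC and SDHD, both lower, and with quantile normalization it was 1, SDHD. SDHB was the 1 subunit counted, as higher, with 2 stages in the fit, with the methods' t-test and with 2 dim middle-stage arrays left out, a setting chosen after the values were known. The second-period count was 4, SDHD included, without animal 1, 7 or 9 (changes of 0.42, 0.43 and 0.43), with normexp (1.16) and with the 2 dim arrays left out (0.33). Other settings gave a smaller SDHD change that was not counted. It was 0.18 with 75th percentile scaling and with the deposited value table, and 0.23 with quantile normalization and with slide as a random block.

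The changes were also set against the median of all probes, which was 0.33 in the first, −0.28 in the second and 0.03 in the total period. Among 6797 bright probes, which passed the background call on each of the 27 arrays, the median was 0.08, 0.09 and 0.13. Relative to the median of all probes, first-period changes were −3.26 for SDHA, −2.06 for SDHB, −2.17 for SDHC and −0.995 for SDHD. In the second period they were 3.30, 2.29, 1.93 and 0.63 in the same order. The subunits thus moved against the median of all probes in both periods. This did not hold against brighter probes in the second period, since the median of the bright probes (0.09) and that without dim probes (0.13) were above 0, as the subunits were. Quantile normalization moved the all-probe median to 0.09 and −0.04 and gave relative first-period changes of −3.10, −1.84, −1.96 and −0.80. Its relative second-period changes were 3.05, 1.89, 1.67 and 0.27, and those without dim probes were 2.89, 1.88, 1.52 and 0.22. The share of changed probes that were higher was 68.1%, 37.3% and 54.9% over the periods with median scaling, and 51.6%, 51.0% and 49.7% with quantile normalization. With 75th percentile scaling it was 70.8%, 29.5% and 33.8%, and without dim probes 50.2%, 57.9% and 63.7%. In the total period the SDHA difference lay on the other side of the all-probe median with quantile normalization (−0.03 instead of 0.06) and without dim probes (−0.01), and marginally so without animal 6.

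**Figure D3:**
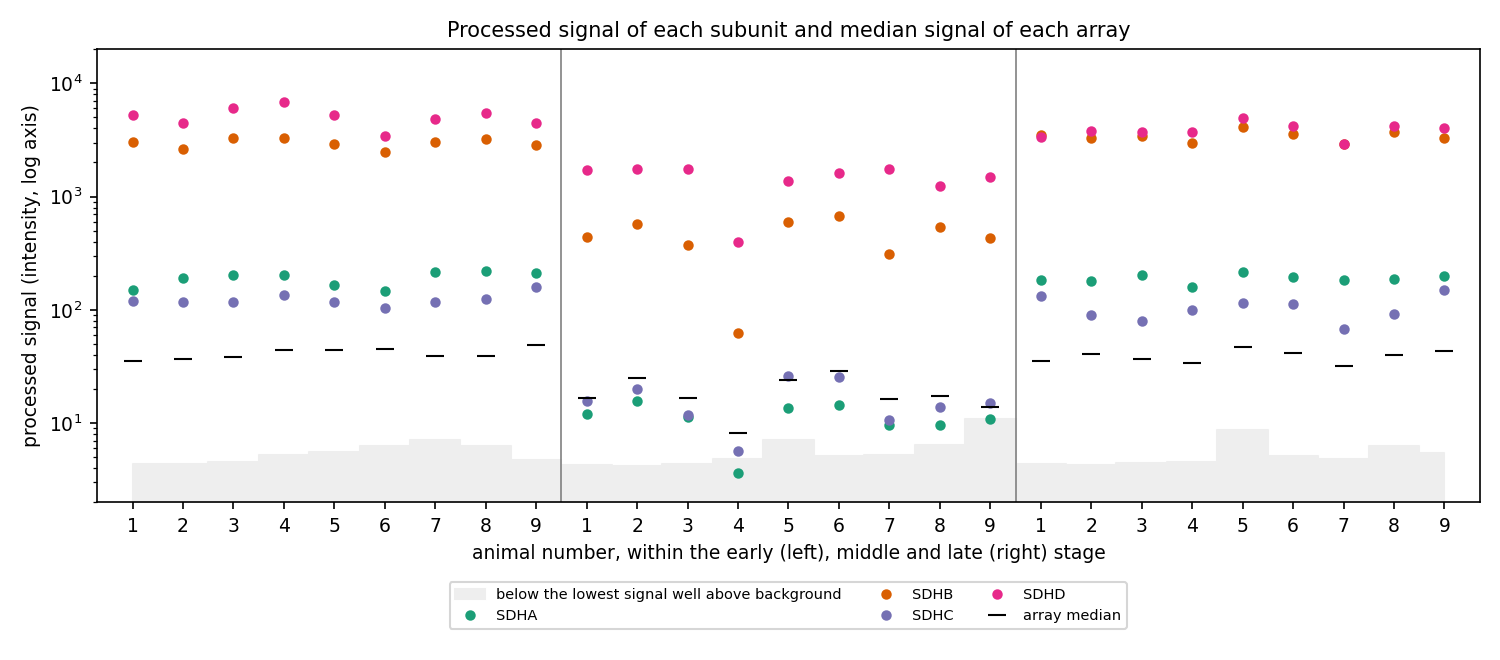
Processed signal (intensity, log axis) of each subunit on each array, by animal and stage, with the array median as a black dash and a grey field up to the lowest signal called well above background on that array. At the middle stage SDHA and SDHC signals (3.66 to 15.5 and 5.62 to 25.8) lie nearer to the grey field than at the other stages, with SDHA of animal 4 (3.66) inside it, and those of SDHB and SDHD lie well above it.

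Normexp background correction adds an offset of 50 to each signal. First-period changes became smaller for SDHA (−1.29) and SDHC (−0.81) and larger for SDHD (−1.27), with the direction kept. The offset is larger than the middle-stage signals of SDHA and SDHC, as the plot of processed signals shows, and therefore compresses their steps by construction. For these dim probes the direction, and not the size, was common to both background corrections.

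Slide 2 allowed a comparison within 1 slide and 1 scan day. On it the SDHA level of early-stage animal 9 was 2.13, and the 7 middle-stage arrays were −1.17 to −0.45. The early-stage SDHB level was 5.86, beside 2.92 to 4.73. For SDHC it was 1.72, beside −0.61 to 0.10. In these 3 subunits the early-stage array lay above every middle-stage array of its slide. That early-stage array also had the highest median signal of all arrays (48.6), beside 8.22 to 28.7 for the 7 middle-stage arrays, which came from other animals. Stage and brightness thus cannot be told apart on this slide either. The early-stage SDHD level of 6.52 lay within the middle-stage range of 5.58 to 6.74, so no separate step was seen for this anchor. With a single early-stage array, these are levels side by side without a test. A model with slide as a fixed block, possible in the first period only, depends on the same array to separate stage from slide. It gave −2.27 for SDHA, the 1 subunit it called. SDHB (−1.42) and SDHC (−1.58) were lower in it without being called, and the direction of SDHD turned (0.43, SE 0.63). On slide 2 by itself the SDHD difference was −0.30 (SE 0.52), so both values of SDHD were smaller than their SE. Slide as a random block called 3 subunits lower in the first period, and SDHD was not among them. On scan day 1 alone, an alternative added after the data had been seen, all 4 were called lower with 9 early-stage and 7 middle-stage arrays.

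**Figure D4:**
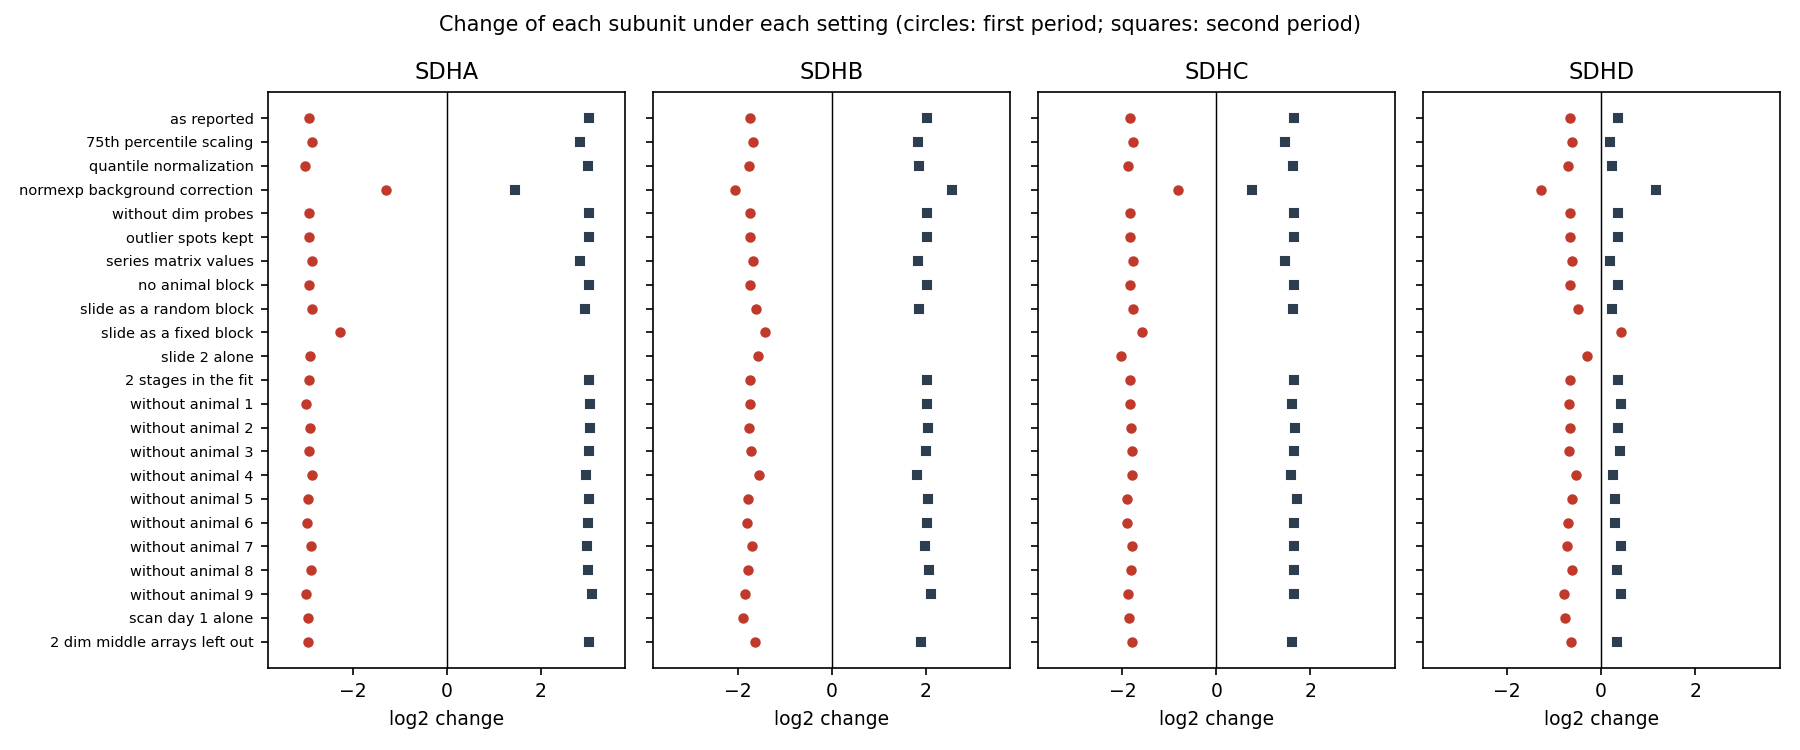
Log2 change of each subunit in the first (circles) and second period (squares) as reported and under each alternative, 1 line each. SDHA, SDHB and SDHC keep their side of 0 throughout, with normexp moving SDHA to −1.29 and 1.44, and SDHD crosses 0 in the first period with slide as a fixed block (0.43).

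Levels of other cell types were measured beside these changes. Smooth muscle markers (8 genes, with ACTA2 the brightest probe) had a median summed level of 175, 323 and 145 over the stages, and 4 of them passed the background call on every array. Fibroblast markers (8 genes, COL1A2) had 281, 459 and 290.1, endothelium markers (7 genes, VWF) 28.2, 28.8 and 27.6, and red blood cell markers (5 genes, HBA) 59.9, 138 and 55.2. Leukocyte markers (12 genes) had 103, 89.9 and 84.2, with ITGB2 the brightest probe at the early and middle and CSF1R at the late stage. Brightness depends on the probe as well as on the transcript, and each sum is weighted toward its brightest probes. At the middle stage 6, 4, 1 and 6 genes of the fibroblast, endothelium, red blood cell and leukocyte lists passed the background call on every array, and 1, 1, 3 and 3 on none. By their medians, the smooth muscle, fibroblast and red blood cell sums were highest, and the stratified epithelium sum lowest, at the middle stage, where the subunits were also lowest. Middle-stage and early-stage ranges overlapped widely for smooth muscle (103 to 869 and 115 to 395) and fibroblasts (90.1 to 1035 and 90.7 to 762) and were separate for red blood cells (102 to 195 and 38.0 to 66.8). In the first period 5 of 8 smooth muscle, 2 of 8 fibroblast and 3 of 5 red blood cell markers were called higher and 0, 1 and 0 lower, beside 45.3% and 21.2% of all probes. Of those called higher, 3, 1 and 1 passed the background call on all 9 arrays of at least 1 stage. Of the stratified epithelium markers, 12 of 19 were called lower and 2 higher in that period, most of them in the direction of the subunits. COL1A2, the brightest fibroblast probe, was not called (0.50, limma adjusted *P* = 0.0553). LUM of the same list, named after its values were seen, fell by 1.12 (adjusted *P* = 8.28e-06) in 9 of 9 animals. In the second period 0 of 8 smooth muscle, 1 of 8 fibroblast and 0 of 5 red blood cell markers were called higher. Lower were 7, 5 and 3 of them, beside 26.7% of all probes higher and 44.8% lower. Of those called lower, 4, 4 and 1 passed the background call on all 9 arrays of at least 1 stage. Leukocyte markers had 5 of 12 higher and 1 lower in the first period, and 2 higher and 7 lower in the second. Of these, 2 and 1, then 2 and 4, passed the background call on all 9 arrays of at least 1 stage. Endothelium markers had 2 of 7 higher and 1 lower, then 0 and 2, of which 1 and 1, then 0 and 1, passed it likewise. Of the stratified epithelium markers, 9 of 19 were higher and 2 lower in the second period. The part of cell composition in the subunit changes was not tested, nor was that of the lower brightness of the middle-stage arrays. Leaving out the middle-stage arrays of animals 4 and 9, those with the lowest median signal and the lowest share of probes well above background, was an alternative chosen after the data had been seen. It gave first-period changes relative to the all-probe median of −3.23 for SDHA, −1.90 for SDHB, −2.08 for SDHC and −0.93 for SDHD. The middle-stage arrays that remained were still dimmer than every array of the other stages, so this alternative cannot separate brightness from stage.

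Whether animals with more of one subunit also had more of another was examined within each stage, which the choice of the genes did not use. Of 18 correlations between subunits over 9 animals, 2 had an adjusted *P* below 0.05 by r. At the early stage SDHB and SDHD were correlated with r = 0.923 (exact permutation *P* = 0.000681, adjusted 0.0123) and rho = 0.867 (exact *P* = 0.00451, adjusted 0.0406). Without the 2 arrays farthest from the SDHB median r was 0.734, and on slide 1 alone, with 8 animals, it was 0.904 (exact permutation, adjusted *P* = 0.0453). On that slide SDHB and SDHC also passed (r = 0.901, exact permutation, adjusted *P* = 0.0453), which they did not over all 9 animals (r = 0.601, exact permutation, adjusted *P* = 0.135). With 75th percentile scaling r for SDHB and SDHD was 0.911 (exact permutation, adjusted *P* = 0.013). By rho the relation of SDHB and SDHD missed the threshold on slide 1 (0.81, exact permutation, adjusted *P* = 0.196) and with 75th percentile scaling (0.80, exact permutation, adjusted *P* = 0.124). At the middle stage SDHA and SDHD had r = 0.861 (exact permutation *P* = 0.00266, adjusted 0.024) and r = 0.768 without 2 arrays, while rho = 0.817 missed the threshold (exact *P* = 0.0108, adjusted 0.0646). That relation missed the threshold on slide 2 alone (r = 0.846, exact permutation, adjusted *P* = 0.0768) and with 75th percentile scaling (r = 0.767, adjusted *P* = 0.23, exact permutation), and both probes passed the background call on 7 of the 9 arrays. SDHB and SDHC at the middle stage passed by rho (0.867, exact permutation *P* = 0.00451, adjusted 0.0406) and not by r (0.588, exact permutation *P* = 0.066, adjusted 0.135; 0.531 without 2 arrays), nor by rho on slide 2 (0.929, exact permutation, adjusted *P* = 0.121) or with 75th percentile scaling (0.50, exact permutation, adjusted *P* = 0.533). Early-stage values of r were 0.601 to 0.923 (median 0.666), middle-stage values 0.011 to 0.861 (median 0.544) and late-stage values −0.237 to 0.646 (median −0.086). These ranges depended on few arrays, since without the 2 arrays farthest from the median of the first-named subunit the early-stage values were −0.281 to 0.734, the middle-stage values −0.336 to 0.768 and the late-stage values −0.169 to 0.832. Of the 6 early-stage relations, 4 then had r of −0.281, 0.233, 0.237 and 0.443. Levels taken relative to 1 array median share that median, which may move all probes of an array together, and the difference between stages was not tested.

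Probes whose pattern over the 27 arrays was most like that of a subunit were sought among 10121 probes outside the subunits, as the smallest root mean square difference in log2 level after each probe was centered on its own mean. Nearest to SDHA were MARCH3 (0.31), AUP1, GGA1, WIPI2 and ATP6V1A (0.40), of which GGA1 passed the background call on 0 and WIPI2 on 1 of the 9 arrays of the middle stage. For SDHB they were CDK5 (0.15), WBP1, ATG4D, PPAP2C and DHPS (0.21). SDHC had RAB9A (0.22), MAP2K1, LOC510369, NDUFS1 and PHF20 (0.24) nearest to it, with NDUFS1 a subunit of complex I and PHF20 above the background call on 0 arrays of the middle stage. For SDHD, SETD3 (0.22), WDR59, PPIP5K2, HARS2 and COX10 (0.24) were nearest. Other subunits were less near, since 71 of these probes lay nearer to SDHA than SDHB did, 258 nearer to SDHB than SDHC did, and 174 nearer to SDHC than SDHB did. For SDHD the nearest subunit was SDHC, and 6588 of the 10121 probes lay nearer. Between subunits the difference was 0.40 for SDHB and SDHC, 0.60 for SDHA and SDHB, 0.65 for SDHA and SDHC, 0.69 for SDHC and SDHD, 0.76 for SDHB and SDHD and 1.20 for SDHA and SDHD. These differences follow the stage changes for which the subunits were chosen. With normexp the first-period changes of SDHA and SDHD were close (−1.29 and −1.27) and those of SDHB and SDHC apart (−2.06 and −0.81), so no order of likeness between subunits is read from them.

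Assembly factors help insert the flavin and the iron–sulfur clusters into SDHA and SDHB, and 3 of 4 had a probe (SDHAF1, SDHAF2 and SDHAF3; none for SDHAF4). Each was well above background on 27 of 27 arrays. In the first period 0 of 3 were called in either direction by limma, beside 45.3% of all probes higher and 21.2% lower, with a median change of −0.05 beside 0.33 over all probes, and SDHAF1, SDHAF3 and SDHAF2 had changes of −0.14, −0.05 and 0.12. In the second period SDHAF3 rose by 0.37 (SE 0.11, adjusted *P* = 0.0053, 9 of 9 animals higher).

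The other enzymes of the tricarboxylic acid cycle are the neighbors of the complex in the pathway, and all 14 had a probe. By limma 9 of 14 fell and 1 rose in the first period (21.2% and 45.3% of all probes), with a list median of −0.57 beside 0.33 over all probes. In the second period 11 rose and 1 fell (26.7% and 44.8% of all probes), with a median of 0.82 beside −0.28. With slide as a random block (estimated correlation 0.293), 6 were called higher in the second period. The largest falls were in DLST (−2.16, SE 0.20, adjusted *P* = 1.26e-07) and OGDH (−1.68, SE 0.10, adjusted *P* = 1.09e-09), of the complex that makes succinyl-CoA, and in MDH2 (−2.03, SE 0.23, adjusted *P* = 1.14e-06), a malate dehydrogenase, each lower in 9 of 9 animals. At the middle stage the MDH2 probe passed the background call on 5 of 9 arrays. Nearest to succinate, the succinyl-CoA ligase subunits SUCLA2 (−1.02) and SUCLG1 (−0.52) fell in 9 of 9 animals, and SUCLG2 was not called (adjusted *P* = 0.974). FH, the fumarase that takes up the product of the complex, fell by 0.62 (SE 0.18, adjusted *P* = 0.00512, 8 of 9 animals), and its direction turned with slide as a fixed block (0.24). Citrate synthase CS rose by 0.49 (SE 0.15, adjusted *P* = 0.00674, 8 of 9 animals) while the subunits were lower. Slide as a fixed block left 1 of the 14 called lower in the first period.

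Other enzymes also hand electrons to ubiquinone, as succinate dehydrogenase does. Their list also holds ETFA and ETFB, subunits of the electron transfer flavoprotein that passes electrons to ETFDH, and 8 of 8 genes had a probe. In the first period 5 were called higher and 2 lower, beside 45.3% and 21.2% of all probes, with a median of 0.36 beside 0.33. ETFDH (−1.25, SE 0.16, adjusted *P* = 4.66e-06) and ETFA (−1.01, SE 0.14, adjusted *P* = 8.45e-06), which bring electrons from fatty acid oxidation, fell in 9 of 9 animals, while PRODH, the proline dehydrogenase, rose by 1.40 (SE 0.21, adjusted *P* = 2.02e-05) in 9 of 9. GPD2 rose by 0.91 (SE 0.12, adjusted *P* = 4.11e-06, 9 of 9 animals). The CHDH probe, among those called higher, passed the background call on 1 of 27 arrays. ETFB and SQOR, also called higher, were −0.10 and −0.18 with normexp.

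Of the genes that carry propionate to succinyl-CoA, 6 of 6 had a probe, 3 fell and 1 rose in the first period (median −0.35), and 4 rose and 1 fell in the second (median 0.65). Of all probes 21.2% fell and 45.3% rose in the first period (median 0.33), and 26.7% rose and 44.8% fell in the second (median −0.28). MCEE, PCCB and MMAA fell by 0.81, 0.47 and 0.47 (adjusted *P* = 0.00499, 0.00199 and 0.00521), each in 8 of 9 animals, and MMUT rose by 0.50 (adjusted *P* = 0.00878, 8 of 9 animals). The MMAA direction turned with slide as a fixed block (0.90) and that of MMUT with normexp (−0.07). Of the genes of succinate supply, transport and sensing 3 of 5 had a probe, and the receptor SUCNR1 and the carrier SLC25A10 had none. OXCT1, which releases succinate in ketone body use, rose by 1.03 (SE 0.24, adjusted *P* = 0.000995, 8 of 9 animals) in the first period and fell by 1.11 (adjusted *P* = 0.000405, 8 of 9 animals) in the second, the directions of the all-probe median. ALDH5A1 and ABAT, which make succinate from the transmitter GABA, had first-period changes of 0.38 (adjusted *P* = 0.0768) and 0.68 (adjusted *P* = 0.14). In the second period ALDH5A1 fell by 0.76 (SE 0.19, adjusted *P* = 0.00132, 8 of 9 animals), and ABAT was not called (−0.48, adjusted *P* = 0.286). These 3 probes were dim, with mean levels below the array median at each stage, and OXCT1, ALDH5A1 and ABAT passed the background call on 8, 6 and 5 of the 9 middle-stage arrays.

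**Figure D5:**
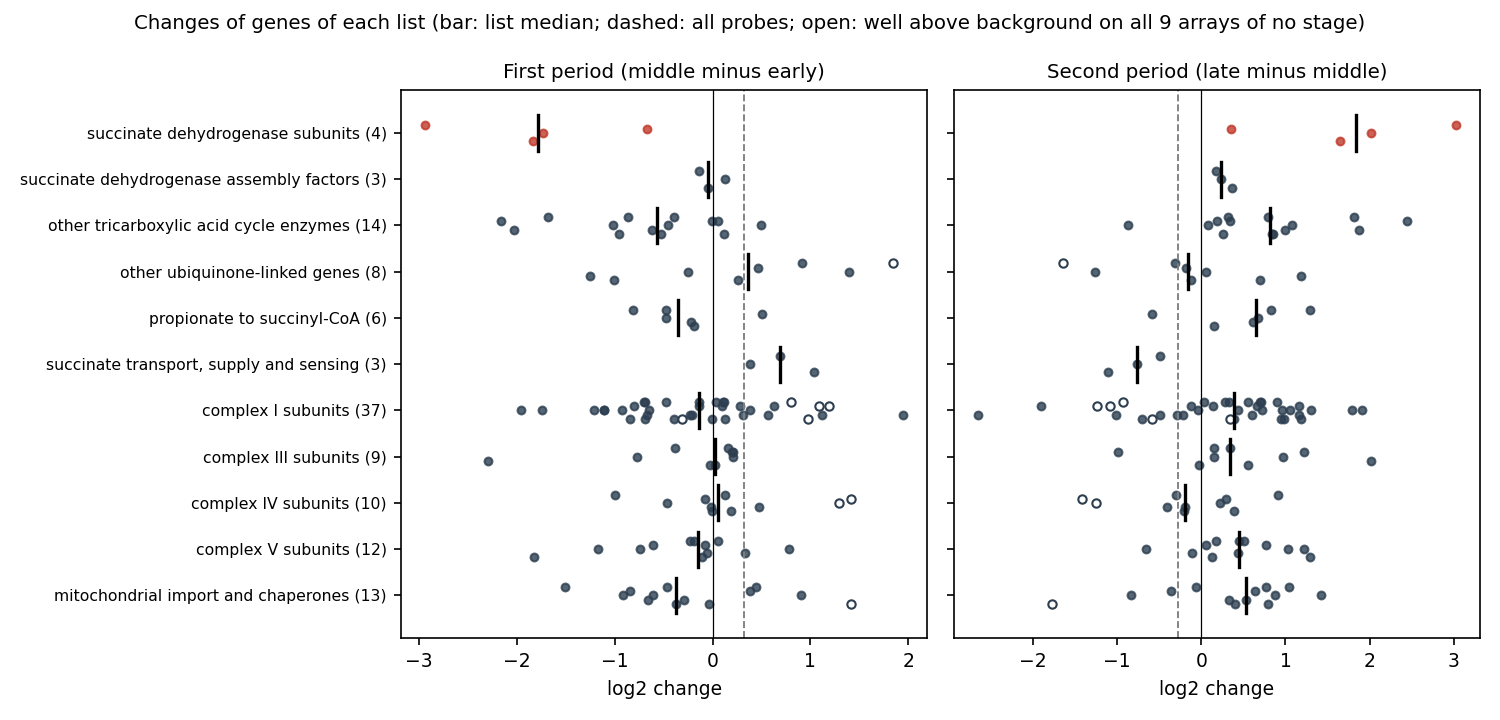
Log2 change of each measured gene of the subunits and of 10 other lists in the first and second period, with list medians as bars, the median of all probes dashed and open points for genes that at no stage passed the background call on all 9 arrays. The medians of the tricarboxylic acid cycle list (−0.57 and 0.82) lie on the same side of 0 as those of the subunits (−1.79 and 1.83), and that of complex III (0.03 in the first period) lies near 0.

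The other respiratory complexes were set beside complex II. The counts below stand against 21.2% of all probes lower and 45.3% higher in the first period, with a median of 0.33. For complex I 14 of 37 genes fell and 10 rose in the first period (median −0.14), from NDUFA3 (−1.96, adjusted *P* = 1.25e-07) and NDUFS1 (−1.74, adjusted *P* = 1.78e-09), lower in 9 of 9 animals, to NDUFC1 (1.95, adjusted *P* = 2.51e-07), higher in 9 of 9. The NDUFA3 probe passed the background call on 1 of 9 arrays of the middle stage, and of the 10 called higher NDUFB1 (1.19), NDUFB4 (1.09) and NDUFA5 (0.98), the last 2 named after their values were seen, at no stage passed it on all 9 arrays. Complex III had 3 of 9 genes lower and 0 higher (median 0.03), led by UQCRC1 (−2.30, SE 0.18, adjusted *P* = 2.3e-08). For complex IV 2 of 10 were lower and 3 higher (median 0.06), and 2 of those higher, COX8A and COX5A, were well above background on no array. Complex V had 4 of 12 lower and 2 higher (median −0.15), with ATP5F1C at −1.83 (adjusted *P* = 5.12e-08) and ATP5ME at 0.78 (adjusted *P* = 0.000182). In the second period the medians of complexes I, III, IV and V were 0.39, 0.34, −0.20 and 0.44, beside 1.83 for the subunits of complex II and −0.28 for all probes. Mitochondrial import and chaperone genes had 7 of 13 lower and 4 higher in the first period (median −0.37), with HSPA9 at −1.50 (adjusted *P* = 4.72e-08) and HSPD1 at 0.91 (adjusted *P* = 0.000121), and TOMM22, among those higher (1.42), passed the background call on 0 arrays. The plot of list changes shows genes on both sides of 0 in each of these lists, whereas the subunits, which were chosen for their changes, lie on one side. As no list was tested, nothing is called particular to complex II.

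In the total period the subunits had a median of −0.05, beside 0.03 over all probes, and the medians of the 10 plotted lists ran from −0.08 for succinate supply, transport and sensing to 0.32 for the assembly factors. The tricarboxylic acid cycle list had 2 of 14 higher and 1 lower (median 0.19), beside 11.0% and 9.01% of all probes, and IDH2, an isocitrate dehydrogenase, fell by 0.55 (SE 0.11, adjusted *P* = 0.00153, 9 of 9 animals). Assembly factors SDHAF2 and SDHAF3 were higher by 0.36 (adjusted *P* = 0.0363, 9 of 9 animals) and 0.32 (adjusted *P* = 0.0429, 8 of 9 animals). Calls in the total period depended on the setting. With slide as a random block 82 probes were higher and 166 lower, and neither IDH2 nor these factors were called, nor were they with normexp. SDHAF2 and SDHAF3 were also not called with 75th percentile scaling, quantile normalization or the deposited value table, and each lost its call when any 1 of 6 animals was left out.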

How the data were processed

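RNA of RE biopsies from 9 cattle at 3 stages was labeled with cyanine 3 and hybridized to 27 one-color arrays. Per the file headers, the authors made the deposited processed signal, an intensity on a linear scale, with Agilent Feature Extraction 11.0.1.1, while their processing notes name 9.5. The same deposited output calls each spot well above background or not (values of 0 or 1). A deposited value table in log2 units, with column medians of −3.07 to −2.60, served as an alternative. Control spots left aside, 15110 of 15646 remained, and 11194 of the 15008 probes were matched to the reference gene table. Outlier spots were left missing, and no subunit spot was an outlier or saturated.

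For each array the median log2 signal was subtracted. Stages were compared in R 4.3.3 with limma 3.58.1 (statmod 1.5.0), with animal as a block and Benjamini-Hochberg adjustment over 15008 probes. Correlations used exact permutation of 362880 pairings (Python 3.11.15, scipy 1.17.1), two-sided. The fit was run on simulated data that held no effect of slide or brightness, so that run does not bear on either. Residuals of samples with the same animal number were correlated at 0.158 on average (27 pairs, 24 above 0) and those of different numbers at −0.02. With no replicate block instead of the paired model the subunit changes were the same and 6620 probes were higher and 3078 lower in the first period, 3906 and 6578 in the second, and 1507 and 1222 in the total period.

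Named genes were the 4 subunits, all measured genes of the lists of the cycle, assembly, ubiquinone, propionate and succinate, the most raised and lowered 2 of each other list, the brightest markers and the 5 nearest probes. Members and lists were chosen with earlier results of these data known. Each choice was varied in turn. Scaling was changed to the 75th percentile or to quantile normalization, and background correction to normexp. Dim probes were removed, outlier spots kept, or the deposited log2 table used. The block was dropped, slide was entered as a random or as a fixed block, or slide 2 was taken by itself. The fit was limited to 2 stages, replaced by the methods' t-test, or repeated without each animal. After seeing the data, scan day 1 alone and the omission of 2 dim middle-stage arrays were added. The number of arrays limits the precision.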

Additional observations from a re-analysis of the deposited data

Results flagged for a closer look

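Each subunit's 9 levels per stage and 9 changes per period were examined for 1 value far from the others, 24 groups in all, of which chance marks about 1 in 20. In 3 groups a value stood out, all from the middle-stage array of animal 4. The SDHB level there was 2.92 (middle-stage median 4.54), which gave changes of −3.30 in the first period and 3.54 in the second. That array had the lowest median signal of the 27 (8.22), and SDHB was well above background on it. SDHA and SDHD were also lowest among middle-stage arrays there (−1.17 and 5.58), without standing out by the same measure. Its stratified epithelium sum was the lowest as well (1546). These values share 1 array, so they are not 3 separate observations, and the part of its brightness was not tested.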

How the results depend on the processing

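Subunit changes moved by less than 1 SD over animals in 230 combinations of a change and an alternative and by more in the other 10. Their sign turned in 3, SDHD in the first period with slide as a fixed block (below) and SDHA in the total period, at −0.03, with 75th percentile scaling and with the deposited log2 table. Leaving out each animal in turn gave −3.00 to −2.88 for SDHA, −1.84 to −1.54 for SDHB, −1.90 to −1.80 for SDHC and −0.78 to −0.54 for SDHD in the first period. Called probes then numbered 9386 to 9858, 10320 to 10680 and 2230 to 3064 over the periods.

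With normexp the SDHA changes were −1.29 and 1.44 in the first and second period, those of SDHC −0.81 and 0.75 and those of SDHD −1.27 and 1.16, SDHB was 0.51 in the total period, and 1195 probes were called in the total period. Its offset compresses the dim signals of SDHA and SDHC by construction. SDHB and SDHD are bright probes whose values became larger, and the cause of that was not tested. Quantile normalization gave 0.10 for SDHB in the total period. Without dim probes fewer probes were tested, and 6363 were called in the first period, beside 6883 in the second.

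Slide as a fixed block gave −2.27 for SDHA and, with the direction turned, 0.43 for SDHD in the first period. It called 1255 probes, 1 subunit lower and 1 tricarboxylic acid cycle enzyme lower. The late stage could not be fitted with it, since no slide holds late-stage arrays and another stage. Slide 2 alone, with 1 early-stage array, called 7 probes (3274 at an unadjusted *P* below 0.05), 1 subunit and 0 cycle enzymes, counts that rest on that array and support nothing. Slide as a random block, with an estimated correlation of 0.293, called 248 probes in the total period and 6 cycle enzymes higher in the second. The fit of 2 stages called 4760 probes in the total period.

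Subunits called higher in the second period numbered 3 as reported and 4 without animal 1, 7 or 9, with normexp and with the 2 dim middle-stage arrays left out. Those called in either direction in the total period numbered 0 as reported, 2 with 75th percentile scaling, 2 with the deposited log2 table, 1 with quantile normalization, 1 (SDHB) with 2 stages in the fit, 1 with the methods' t-test and 1 with the 2 dim arrays left out, an alternative chosen after seeing the data.

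Of genes in the lists, the direction turned with slide as a fixed block in the first period for FH (0.24), CHDH (−0.10), MMAA (0.90) and TOMM20 (0.30). With normexp it turned in the first period for ETFB (−0.10), SQOR (−0.18), MMUT (−0.07) and ATP5PD (−0.10), and in the second for GPD2 (0.26), MMUT (0.04), ATP5ME (0.19) and COL1A2 (0.04). With quantile normalization it turned for COX5A in the second period (0.06) and for NDUFB4 in the first (−0.00) and second (0.18). The correlation of SDHA with SDHD at the middle stage missed the threshold on the main slide (r = 0.846) and with 75th percentile scaling (r = 0.767), and that of SDHB with SDHC at the early stage passed it on the main slide (r = 0.901). Apart from the offset of normexp and the smaller numbers of probes or arrays, the cause was not tested.

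Signal over background limits SDHA and SDHC at the middle stage, where 2 and 3 of 9 signals were not well above background and the sizes of their changes are uncertain. Brightness, slide and stage moved together. The SDHC probe was placed on no chromosome by the design. One probe per subunit gives no view of transcript forms, and RNA levels say nothing of enzyme activity.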
